A study of Caenorhabditis elegans with 2 samples.

Results

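The Myc, Max and TFEB family examined here is a set of 6 protein-coding genes of the nematode Caenorhabditis elegans: mml-1, mxl-1, mxl-2, mxl-3, mdl-1 and hlh-30. They were taken by name from the Ensembl annotation, and all 6 names matched 1 gene each, out of 19973 protein-coding genes on the 6 nuclear chromosomes. Chromatin immunoprecipitation followed by sequencing (ChIP-seq) recovered DNA bound by SOMI-1, a zinc finger protein, in 2 biological replicates of 1 group, so the data hold no contrast of conditions. Both replicates were whole young adults of pooled sex at 65.5 hours, grown from starved L1 larvae obtained by bleaching. All animals were of strain OP752, a stable line with the unc-119(tm4063) allele and the insertion wgIs752. That insertion expresses somi-1::TY1::EGFP::3xFLAG, a SOMI-1 protein with tags, and also holds unc-119(+), a working copy of the mutated gene. An anti-GFP antibody pulled down the tagged protein with its DNA, which had been sonicated to 200 to 800 bp. OP752 is 1 transgenic line and whole animals were pooled, so the cells in which a site was bound are not known.

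Proteins of this family are basic helix-loop-helix factors that bind DNA in pairs, and their classical site is the E-box CACGTG. In C. elegans MML-1, the Myc and Mondo-like protein, pairs with the Mlx homologue MXL-2, whereas MDL-1, the Mad-like protein, pairs with the Max homologue MXL-1. MXL-3 is a further Max-like protein, known for repressing lysosomal lipase genes in fed animals, and HLH-30 is the homologue of mammalian TFEB, which activates genes of autophagy and the lysosome. Several of these factors act in the lifespan of worms.

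SOMI-1 peaks clustered at mdl-1 and hlh-30 and were weak at mxl-1 and mxl-2. In and around mdl-1 lay 8 of the peaks that the authors kept by a threshold, more than at any other protein-coding gene. At hlh-30, 5 lay inside the gene and 1 just upstream. At mml-1 and mxl-3 there were 2 such peaks each, all outside the promoter window, and at mxl-1 and mxl-2 there were 0. The genes with an E-box near a summit changed in the replicates' own lists. Among the kept peaks, E-boxes stood near 3 of the mdl-1 summits and 1 of the mml-1 summits, and near 0 of the hlh-30 summits. Those windows are shown first, since the account below refers back to them. Each runs 50 bases to either side of the summit, the highest point of a peak, on the strand of the gene, with sequence from RefSeq WBcel235 (ce11).

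The mdl-1 windows with an E-box, in capitals, are chrX:6737699-6737799, chrX:6741053-6741153 and chrX:6743978-6744078 on the plus strand. The last one, at the 5′ end of the gene, is chrX:6742252-6742350 and holds no E-box; it stops at the base before the annotated 5′ end.
mdl-1, 4602 bp upstream: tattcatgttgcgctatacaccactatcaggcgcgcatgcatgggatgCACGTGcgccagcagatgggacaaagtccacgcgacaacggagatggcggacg
mdl-1, 1248 bp upstream: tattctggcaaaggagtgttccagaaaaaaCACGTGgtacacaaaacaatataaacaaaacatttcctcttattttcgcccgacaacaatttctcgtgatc
mdl-1, 129 bp past the 3′ end: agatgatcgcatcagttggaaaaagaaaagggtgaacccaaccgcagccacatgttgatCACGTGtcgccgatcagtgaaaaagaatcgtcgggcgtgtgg
mdl-1, 49 bp upstream: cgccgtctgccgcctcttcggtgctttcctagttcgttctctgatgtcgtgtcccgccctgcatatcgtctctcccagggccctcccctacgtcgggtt

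The mml-1 windows with an E-box, in capitals, are chrIII:7376530-7376630 and chrIII:7375097-7375197 on the minus strand. They are shown because the stronger one lies outside the promoter window and the weaker one inside it.
mml-1, 1849 bp upstream: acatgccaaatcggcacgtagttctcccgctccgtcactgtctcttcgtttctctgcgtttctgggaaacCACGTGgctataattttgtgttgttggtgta
mml-1, 416 bp upstream: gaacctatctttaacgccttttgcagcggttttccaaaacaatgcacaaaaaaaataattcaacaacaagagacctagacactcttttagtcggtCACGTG

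For hlh-30, chrIV:4035044-4035144 is the window at the outermost 5′ end and chrIV:4024332-4024432 the one at its strongest summit, both on the minus strand. Capitals mark GACGCA, a word that an earlier look at these peaks had singled out.
hlh-30, 143 bp upstream: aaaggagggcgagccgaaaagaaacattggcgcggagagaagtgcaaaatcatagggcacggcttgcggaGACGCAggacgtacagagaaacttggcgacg
hlh-30, 10569 bp downstream of the outermost 5′ end, in intron 2: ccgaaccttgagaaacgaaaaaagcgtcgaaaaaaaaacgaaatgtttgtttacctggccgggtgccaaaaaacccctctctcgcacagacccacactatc

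The authors deposited a list of 29600 peaks for replicate 1, a list of 26067 for replicate 2 and a joint list of 26266 called on both. Of the joint peaks they kept 1667 with an irreproducible discovery rate (IDR) threshold, which compares the ranks of peaks between replicates. The kept peaks are those of highest joint signal, down to 91.0, and the strongest of the others had 90.97. Being kept thus does not by itself show that the replicates agreed at a given place. These kept peaks are called thresholded here. Each peak carries a signal, the authors' own score with no stated unit, which ran from 91.0 to 841 in the thresholded list with a median of 125, and had a median of 39.4 in the joint list. A rank of 1 is the highest signal of a list. Signals of different places are compared within a list. Between lists they are compared at the same place, from replicate 1 to replicate 2, as deposited. Orders, gene counts and percentiles by the strongest summit instead use each list's own strongest one, which can lie at another place. At summits covered by peaks of both replicates, the log2 ratio of the replicate 1 signal to the replicate 2 signal had an SD of 0.52 over 1647 thresholded summits. That SD is used as a yardstick for differences between summits. It measures the spread between replicates at the same place, and not the error of a step between the strongest summits of different genes. Peaks of 1 group are not replicates of a condition, so no p-values are given. The shares over all genes or all summits stand beside the members in place of a test.

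With a promoter window that reached 1000 bp upstream and 200 bp downstream of any annotated 5′ end, 2 of the 6 genes had a thresholded summit, mdl-1 with 1 and hlh-30 with 3. Of all protein-coding genes, 867 of 19973 had one (4.34%). The window adds up to 5547 bp for hlh-30, with its 10 distinct 5′ ends, to between 1201 and 1207 bp for the other members, and to a median of 1201 bp over all genes. In the joint list all 6 members had a promoter summit, against 35.0% of all genes. The replicates' own lists had one at all 6 in replicate 1 and at 5 in replicate 2, where mxl-1 had 0, against 37.9% and 34.9% of all genes. The thresholded pair depended on the replicate. Among the 1667 strongest peaks of replicate 2 alone, mdl-1 and hlh-30 again had promoter summits, 1 and 4. Among the 1667 strongest of replicate 1 alone, mml-1 and mdl-1 had 1 each and hlh-30 had 0.

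Widening the search to 5000 bp on either side of each gene gave 18 thresholded summits at 4 of the 6 genes, against 16.4% of all genes with at least 1. The members' regions held 0.201 thresholded summits per kb over 89.7 kb, and the 6 nuclear chromosomes held 0.0166 per kb. By gene the density was 0.693 per kb at mdl-1, 0.199 at hlh-30, 0.179 at mxl-3 and 0.137 at mml-1. Genes of chromosome X had a thresholded summit within 5000 bp more often than genes elsewhere, in 23.6% of cases for X and in 12.7% to 20.7% for the autosomes, and mdl-1 and mxl-3 are on X. Of the 18 summits, 7 lay upstream of the gene, 4 in an intron, 1 in a 5′ UTR and 6 past the 3′ end. These regions held 63 joint summits, 1 at mxl-2 and 6 to 21 at the other members, with 89.0% of all genes having at least 1. The mxl-2 count of 1 is below the median of 3 over all genes.

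**Figure D1:**
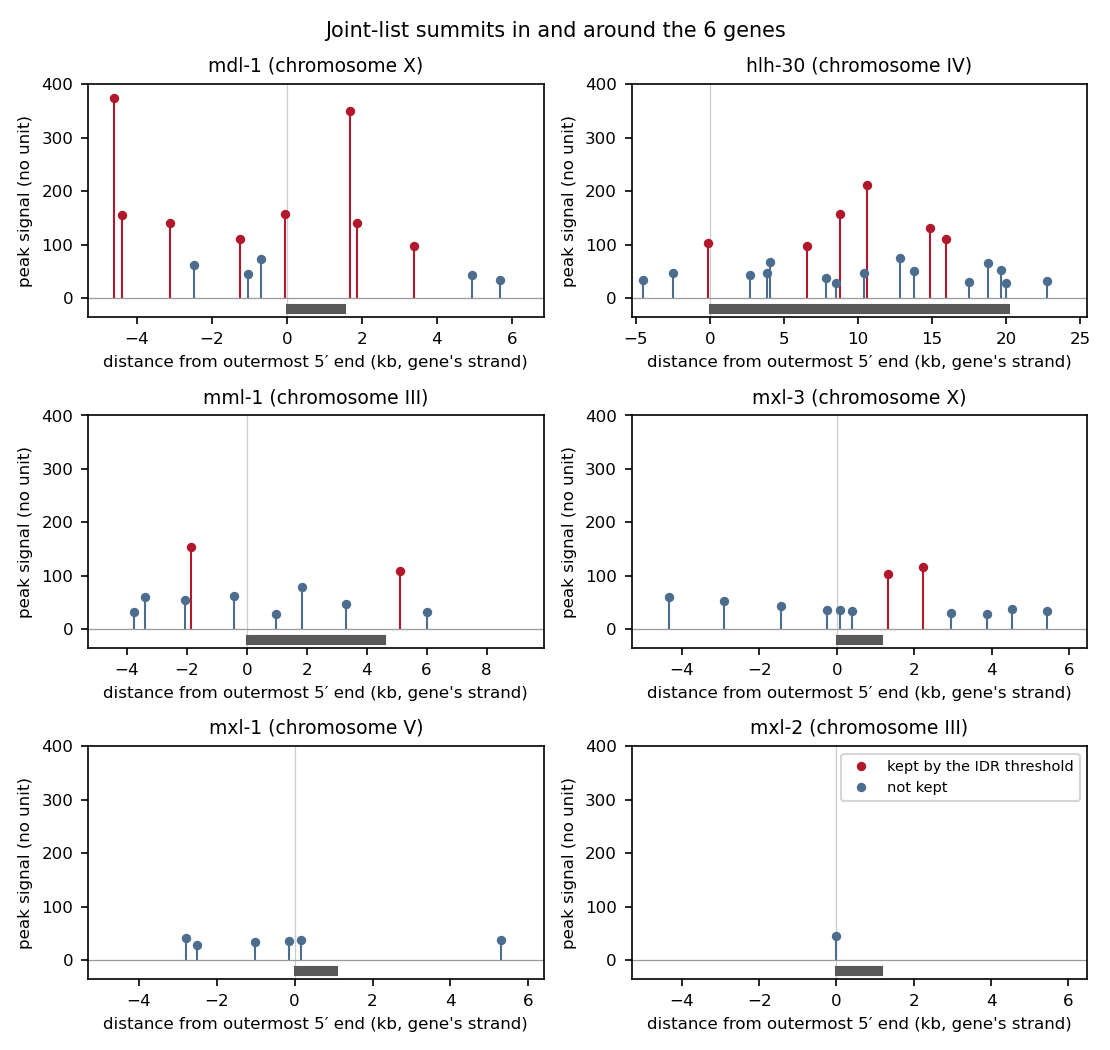
Signal of each joint-list summit (vertical axis, the authors' score, no unit) against its distance from the outermost annotated 5′ end in kb along the gene's strand, for the 6 genes in separate panels. Grey bars mark the genes, red summits were kept by the IDR threshold and blue ones were not. The 8 red summits of mdl-1 flank the gene, 5 of the 6 of hlh-30 lie inside it, and mxl-1 and mxl-2 have 0.

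All 18 thresholded summits at the members were covered by peaks in the lists of both replicates, as were 98.8% of the whole thresholded list. Of the 63 joint summits at the members, 41 were (65.1%), against 43.8% of the joint list. Another 10 lay in a peak of replicate 1 alone, 9 in a peak of replicate 2 alone and 3 in neither. By gene, 11 of 13 were found in both replicates at mdl-1, 16 of 21 at hlh-30, 6 of 10 at mml-1, 5 of 12 at mxl-3, 2 of 6 at mxl-1 and 1 of 1 at mxl-2. Thresholded summits made up 18 of the members' 63 joint summits, against 1667 of 26266 in the whole joint list. Of the members' 45 that were not thresholded, 23 were covered by peaks of both replicates. Those 45 had signals of up to 79.2, and the weakest thresholded one at a member had 97.9. Over the whole joint list the weakest thresholded peak had 91.0 and the strongest of the others 90.97, so none of the members' summits stood at that edge.

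The gene mml-1 (WBGene00003378, chrIII:7370130-7374731, minus strand) encodes the Mondo-like partner of MXL-2. Its stronger thresholded summit lay 1849 bp upstream of the outermost 5′ end, with a signal of 154 at rank 507. The replicates' own peaks there had signals of 70.5 in replicate 1 and 84.5 in replicate 2. This is the window with the E-box 22.5 bp from the summit printed above, and mml-1 is the nearest protein-coding 5′ end. The other thresholded summit lay 511 bp past the 3′ end, where the nearest 5′ end is that of T20B12.4. The 3′ ends of mml-1 and T20B12.4 face each other across a gap of 592 bp. This summit lies in that gap, closer to the 3′ end of T20B12.4. It had a signal of 109.8 at rank 1106, with 54.7 in replicate 1 and 60.8 in replicate 2.

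Inside the mml-1 promoter window the joint list held 1 summit, 416 bp upstream, with a signal of 61.6 at rank 4032. Replicate 1 had a peak over it with a signal of 45.9, while replicate 2 had none, and the strongest promoter summit in replicate 2's own list reached 16.5. The replicates thus differed on this promoter site. The strongest summit within the gene itself lay in a coding exon, 1827 bp from the 5′ end, with a joint signal of 79.2. There the replicates had signals of 41.4 and 35.7, in replicate order.

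Its partner gene mxl-2 (WBGene00003510, chrIII:186949-188131, minus strand) had the fewest summits of the 6. The 1 joint summit within 5000 bp lay 2 bp upstream of the 5′ end, with a signal of 45.0 at rank 9385. The replicates had signals of 22.4 and 25.2 there. The same summit lies in the promoter window of ubc-20, a ubiquitin-conjugating enzyme gene whose 5′ end faces away from mxl-2, so it cannot be assigned to either gene from the lists.

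The gene mdl-1 (WBGene00003163, chrX:6742351-6743899, plus strand) encodes the Mad-like factor that pairs with MXL-1. Its 8 thresholded summits within 5000 bp were the most of any protein-coding gene, where 1 gene had 8, 1 had 7 and 16700 had 0. Overlapping peaks make up part of that number. With overlapping peaks merged, an option added after the data were seen, mdl-1 had 6 regions, as had hlh-30 and mnk-1, a kinase gene chosen for mention after its value was seen. Among the 1667 strongest peaks of replicate 2 alone, mdl-1 had 6 and 10 genes had at least as many; among those of replicate 1 alone it had 7 and 6 genes had at least as many. None of the thresholded summits lay inside mdl-1, which is 1549 bp long.

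**Figure D2:**
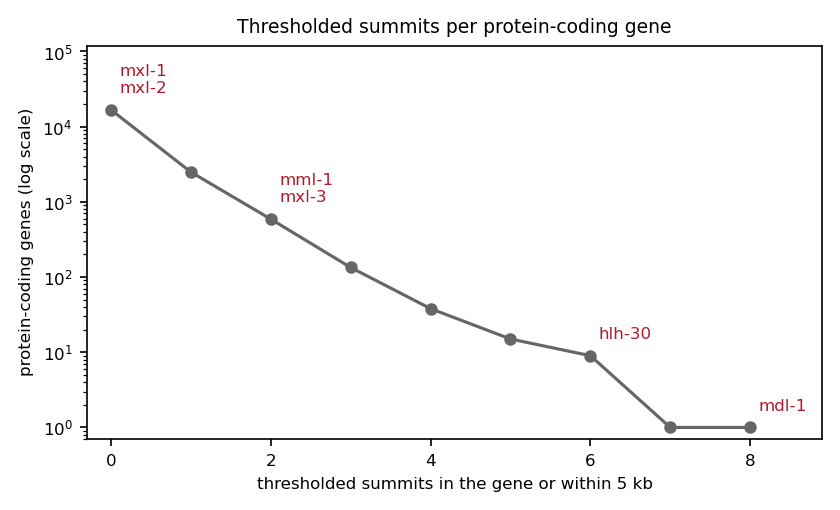
Number of protein-coding genes (vertical axis, log scale) against the number of thresholded summits in the gene or within 5 kb (horizontal axis), over 19973 genes. The 6 members are named at their own counts: 16700 genes share the value 0 with mxl-1 and mxl-2, and mdl-1 stands alone at 8.

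The strongest summit at mdl-1 lay 4602 bp upstream, with a signal of 376 at rank 31 of 26266. Replicate 1 had a signal of 178 there and replicate 2 had 211. Its E-box, printed above, is centred 0.5 bp from the summit. The nearest protein-coding 5′ end is that of R03E9.2, at 4448 bp, slightly nearer than that of mdl-1. A further thresholded summit followed 4400 bp upstream with a signal of 155 at rank 502. Replicate 2 had a peak of its own there with a signal of 112, whereas in replicate 1 the same peak covered both summits.

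The next in strength lay on the other side of the gene, 129 bp past the 3′ end, with a signal of 350.1 at rank 46. The replicates had signals of 184 and 165, so this site was high in both. The E-box in its window is centred 11.5 bp from the summit, and the summit falls inside R03E9.10, an annotated non-coding RNA gene on the opposite strand. An overlapping peak had its summit 331 bp past the 3′ end, also in R03E9.10, with a signal of 141. Its own signals were 103 in replicate 1 and 47.8 in replicate 2. The farthest, 1838 bp past the 3′ end, was the weakest thresholded summit at any member, with a signal of 97.9 in the joint list, 63.1 in replicate 1 and 33.4 in replicate 2.

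The only thresholded summit in the mdl-1 promoter window lay 49 bp upstream of the 5′ end, with a signal of 158 at rank 475. Here the replicates differed. The signal was 118 at rank 163 in replicate 1 and 40.9 at rank 2613 in replicate 2, and the log2 ratio stood 3.03 SD above the median ratio. A joint summit 693 bp upstream, which was not thresholded, went the other way, with 19.2 in replicate 1 and 62.4 in replicate 2. By the strongest joint promoter signal, 265 of 19973 genes (1.33%) were at or above mdl-1. In the replicates' own lists the number was 84 (0.421%) in replicate 1 and 537 (2.69%) in replicate 2. The replicate 2 number rests on its summit 687 bp upstream, with 62.4, and not on the site 49 bp upstream. Between the promoter and the distal sites lay thresholded summits 3115 bp upstream, with a signal of 141, and 1248 bp upstream, with a signal of 111. In the replicates the one at 3115 bp had signals of 72.0 and 70.9, and the one at 1248 bp, which has an E-box 17.5 bp from its summit, had 52.3 and 62.5.

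**Figure D3:**
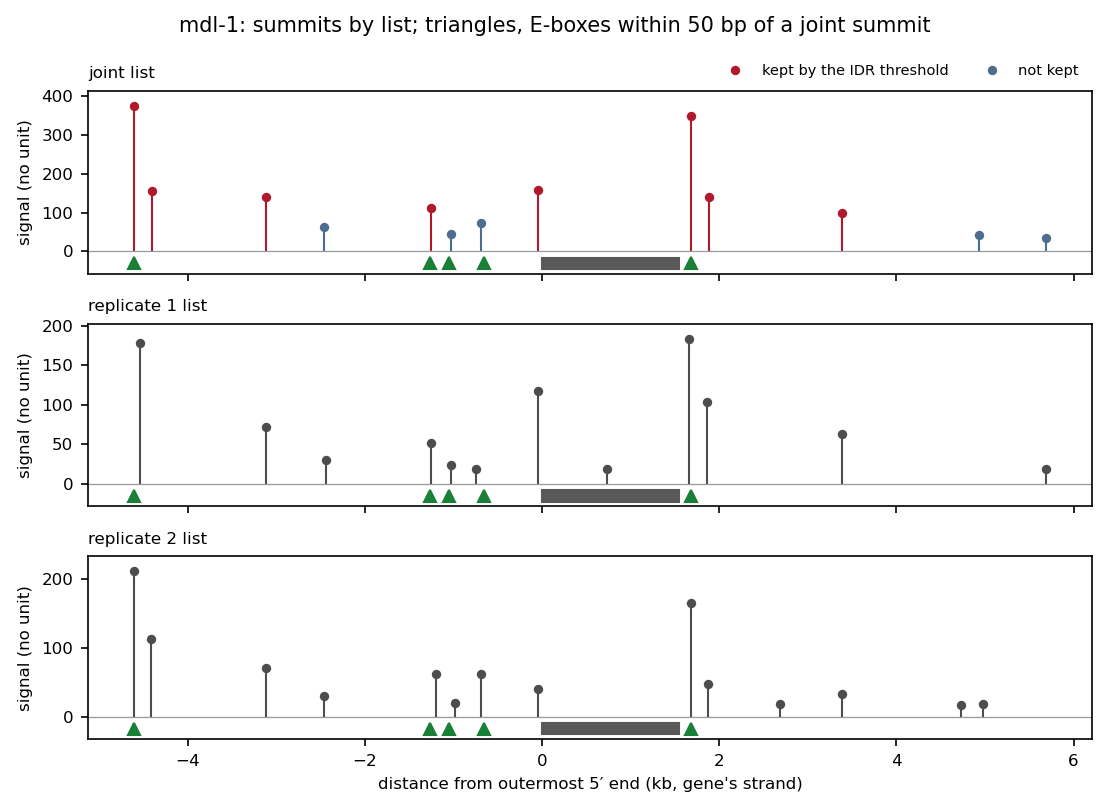
Signal of the summits at mdl-1 (vertical axes, no unit, scaled to each list) against distance from the 5′ end in kb, in the joint list and in each replicate's own list. The grey bar is the gene and green triangles mark E-boxes within 50 bp of a joint summit. The sites 4602 bp upstream and 129 bp past the 3′ end are the highest in all 3 lists. The site 49 bp upstream has 158 in the joint list, 118 in replicate 1 and 40.9 in replicate 2.

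The partner gene mxl-1 (WBGene00003509, chrV:11244839-11245926, plus strand), which encodes the Max homologue, had no thresholded summit within 5000 bp. The joint list held 2 summits in its promoter window, 144 bp upstream and 160 bp downstream of the 5′ end, with signals of 35.8 and 37.7 at ranks 16521 and 14609. The first lies inside the neighbouring gene pgap-1 and the second in a coding exon of mxl-1. A single peak of replicate 1, with a signal of 31.9, covered both, and replicate 2 had none. The strongest of its 6 summits within 5000 bp had a signal of 42.4 and lay nearest to the 5′ end of pgap-1, the upstream neighbour.

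The gene mxl-3 (WBGene00003511, chrX:13349639-13350804, minus strand), which encodes the Max-like repressor of lipase genes, had its thresholded summits past the 3′ end. The nearer lay 164 bp past it with a signal of 104 at rank 1264, and with 52.0 in replicate 1 and 56.3 in replicate 2. The farther lay 1071 bp past it with a signal of 117 at rank 951, and with 48.1 in replicate 1 and 68.1 in replicate 2. Both sites were present in both replicates, and mxl-3 has the nearest protein-coding 5′ end for each. Both lie in the gap of 1514 bp between mxl-3 and ptr-24, whose 3′ ends face each other. The farther summit is closer to the 3′ end of ptr-24 than to that of mxl-3, so the lists do not assign it to either gene. In the promoter window the joint list held weak summits only. The one 265 bp upstream had a signal of 35.5 and was found in replicate 2 alone, at 45.7, and the one 85 bp downstream had 35.3, with 18.05 and 33.7 in the replicates.

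The gene hlh-30 (WBGene00020930, chrIV:4014793-4034951, minus strand) encodes the TFEB homologue and is 20159 bp long, where the median protein-coding gene has 2027 bp. Its 13 transcripts start at 10 distinct 5′ ends, which fall into 5 groups along the gene. It held 5 thresholded summits within its body, and of the 6 genes it was the only one with any there, against 2.33% of all genes. The most in any gene body was 6, and 5 genes had at least 5: hlh-30, let-526, pkg-2, zfp-1 and pqn-41, the other 4 named after their values were seen and between 14771 and 33613 bp long. With overlapping peaks merged, 3 genes had at least as many as hlh-30. Among the 1667 strongest peaks of replicate 1 alone hlh-30 had 3 in its body, with 27 genes at or above it, and among those of replicate 2 it had 5, with 6 genes at or above it. In the joint list 4 of the 6 members had a summit in the gene body, hlh-30 with 17, mml-1 with 3, mxl-3 with 2 and mxl-1 with 1, against 43.0% of all genes.

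The strongest hlh-30 summit, printed above, lay in intron 2, 10569 bp downstream of the outermost 5′ end, with a signal of 212 at rank 223. The replicates had signals of 104 and 111 there. It stood 2681 bp downstream of the nearest annotated 5′ end of the gene and so in no promoter window. Intron 2 held another pair of thresholded summits. The one 8747 bp from the outermost 5′ end had a joint signal of 157, with 92.9 in replicate 2. In replicate 1 it lay between a peak with a signal of 65.3 and a peak with a signal of 21.7, their summits 111 and 110 bp away. The one at 14848 bp, which is 1059 bp upstream of an internal 5′ end, had a signal of 132, with 69.3 and 63.7 in the replicates.

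The other 3 thresholded summits lay at annotated 5′ ends. At the outermost group the summit lay 143 bp upstream with a signal of 103 at rank 1299, and with 41.3 in replicate 1 and 56.8 in replicate 2. At the second group, 6824 bp into the gene, it lay 295 bp upstream with a signal of 98.0, and with 45.8 and 60.3 in the replicates. At the fourth group, 15907 bp into the gene, it lay 20 bp downstream, in a 5′ UTR, with a signal of 111, and with 41.9 and 70.9 in the replicates. All 3 had ranks of 1903 to 2527 in the list of replicate 1, beyond its 1667 strongest peaks. The third group, at 7888 bp, had a joint summit of 38.8 that was not thresholded, and the fifth shares the summit of the fourth within its window. By the strongest joint promoter signal, 592 of 19973 genes (2.96%) were at or above hlh-30. In the replicates' own lists the number was 923 (4.62%) in replicate 1 and 395 (1.98%) in replicate 2. These rest on different summits, at the second group in replicate 1 and at the fourth in replicate 2.

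**Figure D4:**
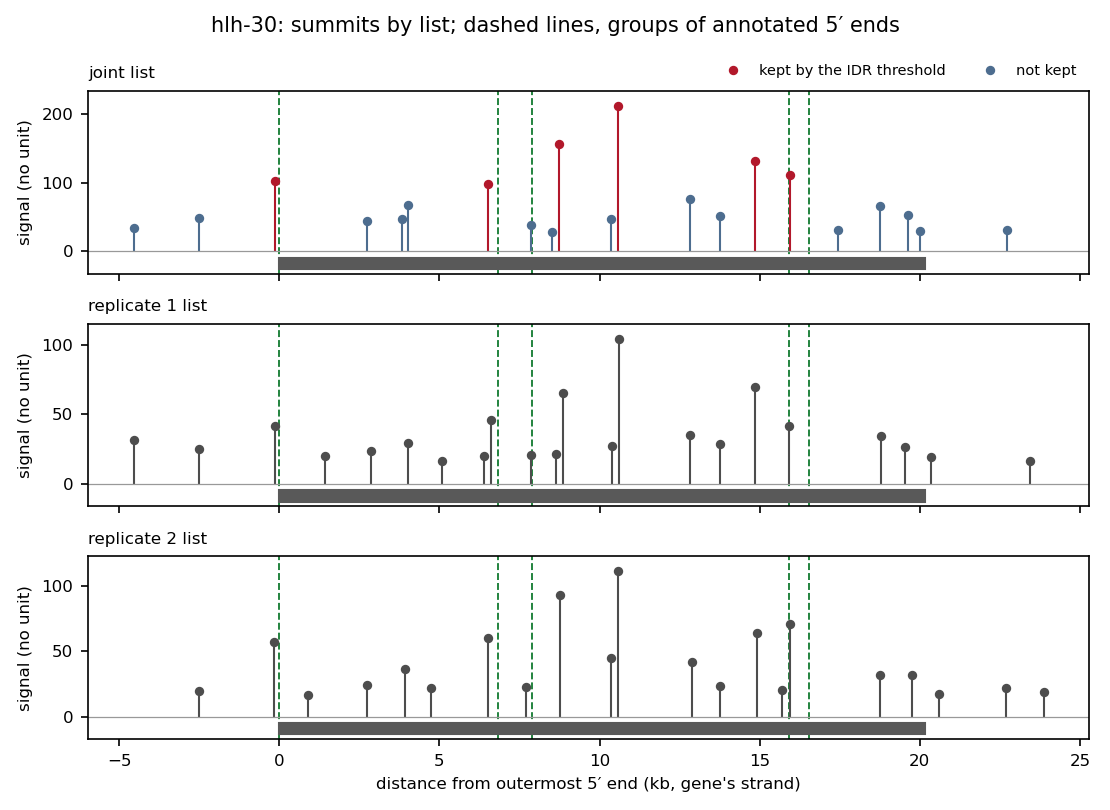
Signal of the summits at hlh-30 (vertical axes, no unit, scaled to each list) against distance from the outermost 5′ end in kb, in the joint list and in each replicate's own list. The grey bar is the gene and dashed green lines are the 5 groups of annotated 5′ ends. The highest summit, at 10569 bp in intron 2, is the highest in all 3 lists, while the thresholded ones at 5′ ends have joint signals of 98.0 to 111 and the joint summit at the third group has 38.8.

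Ordered by the strongest summit within 5000 bp, the joint signals were 376 for mdl-1, 212 for hlh-30, 154 for mml-1, 117 for mxl-3, 45.0 for mxl-2 and 42.4 for mxl-1. The length searched was 30.2 kb at hlh-30 and 11.1 to 14.6 kb at the others. The steps from mdl-1 to hlh-30 (0.83 on the log2 scale) and from mxl-3 to mxl-2 (1.38) exceeded 1 SD of the replicate ratio, and the other neighbours in this order did not differ beyond it. The leading 4 genes stood in the same order in each replicate's own list. Ordered by the strongest promoter summit, the joint signals were 158 for mdl-1, 111 for hlh-30, 61.6 for mml-1, 45.0 for mxl-2, 37.7 for mxl-1 and 35.5 for mxl-3. Of these steps the one from hlh-30 to mml-1 (0.84) exceeded the SD. The promoter order did not hold in the replicates. In replicate 1 mml-1 (50.1) stood above hlh-30 (45.8), and in replicate 2 hlh-30 (70.9) stood above mdl-1 (62.4) and mxl-3 (45.7) came next. The replicate 2 value of mdl-1 belongs to the summit 687 bp upstream.

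**Figure D5:**
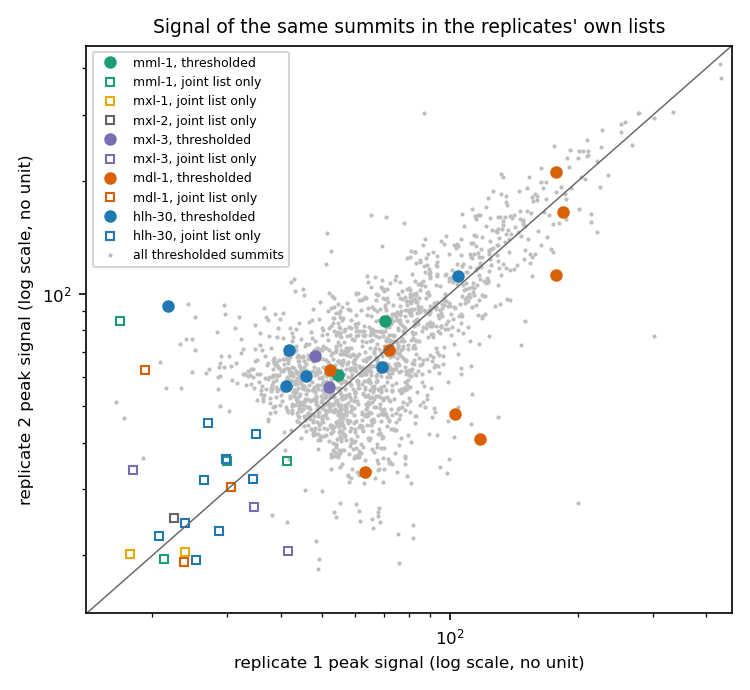
Signal in replicate 2 against signal in replicate 1 (both log scales, no unit) for joint summits at the 6 genes that lie inside a peak of each replicate, with 1647 thresholded summits of the whole list in grey and a line of equal signal. Filled circles are thresholded summits at the members and open squares are joint summits that were not. Most circles lie within the grey cloud; orange circles well below the line are mdl-1 summits that were higher in replicate 1.

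Of the 18 thresholded summits at the members, 3 had a replicate ratio more than 2 SD from the median, against 5.89% of the whole thresholded list. They were the mdl-1 summits 49 bp upstream (3.03 SD) and 331 bp past the 3′ end (2.23 SD), both higher in replicate 1, and the hlh-30 summit at 8747 bp (-3.90 SD), lower in replicate 1. The hlh-30 value rests on which of 2 peaks of replicate 1 is set beside the summit: with the stronger one, an option added after the data were seen, it was -0.91 SD. With that option the mdl-1 summit 1838 bp past the 3′ end took its place among the 3, at 2.01 SD. At mml-1 and mxl-3 all 4 thresholded summits had replicate ratios within 1 SD of the median.

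E-boxes (CACGTG, which reads the same on both strands) lay in 4 of the 18 thresholded windows at the members, 50 bp to either side of the summit (22.2%), against 8.16% of the whole thresholded list. They are the 3 mdl-1 windows and the mml-1 window 1849 bp upstream that are printed above. Of the joint windows the count was 7 of 63 (11.1%), against 2.96%, 5 of them at mdl-1, 2 at mml-1 and 0 at the other 4 genes. In the replicates' own lists the genes differed. Replicate 1 also had E-boxes near hlh-30 summits, such as the summit in intron 2 with a signal of 65.3 at rank 814. Replicate 2 had E-boxes near mxl-3 summits and none near mml-1 summits. At the strongest mdl-1 site the replicate 1 summit lay 63 bp from the joint summit, with no E-box in its window. At the mdl-1 site 1248 bp upstream the replicate 2 summit lay 53 bp from the joint summit, again with no E-box in its window. Only the mdl-1 site 129 bp past the 3′ end had an E-box in the windows of both replicates. The longer form TCACGTGA, also its own reverse complement and a special case of the E-box, occurred in 0 thresholded windows and 1 joint window, 1023 bp upstream of mdl-1, where the shares over all summits were 1.02% and 0.305%. That joint summit had a signal of 45.9 and was not thresholded. With 100 bp to either side the joint count was 13, against 5.56% of all joint summits, and with 200 bp it was 18, against 9.65%.

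The word GACGCA (or its reverse complement TGCGTC) was present in 1 of the 18 thresholded windows, that of hlh-30 143 bp upstream, against 12.4% of all thresholded summits. Among joint windows this was the only one of the 63, against 4.10%. The word GAGAGA (or TCTCTC), picked after these windows had been read, was present in 5 of the 18 (27.8%), 4 of them at hlh-30, against 25.5% of all thresholded summits. The median GC content of the thresholded windows was 44.6% at the members and 46.5% over the whole list. In the 1000 bp upstream of the outermost 5′ end, mdl-1 held 3 E-boxes, mml-1 and mxl-3 held 1 each and the other 3 genes held 0, while 15.2% of 19972 genes had at least 1. GACGCA occurred 3 times upstream of hlh-30, 2 times upstream of mdl-1 and 0 times upstream of the other 4, while 21.6% of genes had it. These matches describe the sequence only.

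Genes tied to the family by function were drawn up as lists with earlier results of these data known, and are described by their counts. Of 34 other basic helix-loop-helix genes, 3 had a thresholded promoter summit (8.82%, against 4.34% of all genes). These were hlh-11, which encodes the AP-4 homologue (signal 211), hif-1, the hypoxia-inducible factor gene (93.5), and aha-1, which encodes the partner of HIF-1 (91.8). Their replicate signals were 113 and 100.9 for hlh-11, 48.5 and 50.9 for hif-1, and 50.2 and 45.7 for aha-1. The summits of hif-1 and aha-1 stood at ranks 1580 and 1635 of 1667, close to the lowest thresholded signal of 91.0. The count of 3 thus depends on where the threshold was set. In the joint list 12 of the 34 had a promoter summit, against 35.0%.

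Of 14 genes of TOR and Rag signalling and of nuclear export, which set where HLH-30 resides in the cell, 4 had a thresholded promoter summit (28.6%, against 4.34% of all genes). They were the 14-3-3 genes ftt-2 (signal 439) and par-5 (127), rheb-1, which encodes the GTPase that activates TOR complex 1 (169), and lmtr-3, which encodes a Ragulator subunit (93.0). The lmtr-3 summit, at rank 1594 of 1667, also stood near the threshold. Of 16 autophagy and lysosomal lipase genes downstream of HLH-30, 2 had one (12.5%), the Atg8 homologues lgg-2 (300.1) and lgg-1 (144). Of 13 insulin and longevity regulators linked to MML-1, MDL-1 or HLH-30, 5 had one (38.5%): daf-16, the FOXO gene (293), hlh-11 (211), akt-2, a kinase gene (149), nhr-49, a nuclear receptor gene of fat metabolism (121), and skn-1, the Nrf homologue (116). In the joint list the counts were 11 of 14, 12 of 16 and 11 of 13, against 35.0% of all genes. The median promoter window was 1344.5, 1464.5 and 2763 bp in these lists, in the order given, and 1201 bp over all genes and over the other helix-loop-helix genes, so the longevity list had the most sequence to hold a summit. Peaks of other factors were not analysed, so it was not tested whether other factors share these sites.

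The gene whose promoter signals were most like a member's was found by the distance between rank percentiles of the strongest promoter summit in the joint list and both replicate lists, over 4272 genes with a summit in all 3. The strongest promoter summit can lie at a different place in each list, as it did for mdl-1 in replicate 2. The mdl-1 summits stood at 1.81% of the joint list, 0.551% of replicate 1 and 3.64% of replicate 2, and those of the closest gene, atad-3, at 1.48%, 0.757% and 3.94%. For hlh-30 it was fah-1, at a distance of 0.364 percentage points. For mml-1 and mxl-3 the closest genes, F19B10.1 and ufc-1, were 7.32 and 4.58 percentage points away. For mxl-2 it was ubc-20, which shares its summit. The gene mxl-1 had no promoter summit in replicate 2 and was not matched.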

How the data were processed

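The data were 4 peak lists on ce11 from SOMI-1-eGFP ChIP-seq of whole young adults, 2 samples labelled as biological replicates of 1 group. Per the deposited text files, the authors called 1 list per replicate and 1 on both, each with 1 control alignment, and derived the thresholded list with IDR. The control was not analysed here. The aligner and the caller with its settings were not given in the sources used here. Neither was the depth, so no counting error can be given. The signal was deposited by the authors per peak, with no stated unit. The authors also deposited a −log10 q-value per peak, which entered no comparison.

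Summits were assigned to genes of Ensembl release 115 (WBcel235, the assembly ce11 names). Many worm transcripts are trans-spliced, so an annotated 5′ end need not be where transcription starts. A joint summit was matched to the replicate peak that covers it and has the nearest summit. Counting of windows and motifs was tested on simulated data. Python 3.11.15, numpy 2.4.6 and matplotlib 3.10.9 were used. The members and the gene lists were chosen with earlier results of these data known. Named, besides the 6 members, are genes sharing a member's promoter summit, genes with the 5′ end nearest to a member's strongest summit, the gene most alike in promoter ranks, list genes with a thresholded promoter summit, and annotated neighbours; genes outside this rule are marked in the text. Alternatives were the list, window, distance, assignment, motif window, threshold and single replicates.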

Additional observations from a re-analysis of the deposited data

How the results depend on the processing

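The number of members with a promoter summit was 2 with thresholded peaks, with the share of all genes in brackets here and below (4.34%). It was 6 with the joint list (35.0%) and 1 with the stronger 834 thresholded peaks (2.35%), where mdl-1 alone was left. Other windows, the nearest 5′ end and the outermost 5′ end gave 2 or 3 (3.04% to 6.14%). Either replicate alone gave 2 (4.13% to 4.5%), though not the same genes. The number with a summit in the gene body was 1 (2.33%) and became 4 with the joint list (43.0%). It was 1 in single replicates (2.46% to 2.64%) and 1 with the stronger 834 peaks (1.16%). The number with a summit within 5000 bp was 4 (16.4%), and 4 in single replicates (16.2% to 16.8%). It was 6 with the joint list (89.0%) and 3 with the stronger 834 peaks (9.24%). Within 2000 and 10000 bp it was 4 (9.68% and 25.7%). Joint summits found in both replicates numbered 41 of 63, against 43.8% of the joint list. With replicate summits within 100 bp they numbered 32, against 31.0%. Those in a peak of replicate 1, whether or not replicate 2 had it, numbered 51, against 71.4%. Those in a peak of replicate 2, counted likewise, numbered 50, against 66.9%. Joint summits with an E-box numbered 7, against 2.96% of the joint list. They numbered 13 and 18 with windows of 100 and 200 bp to either side, which hold more sequence, against 5.56% and 9.65%. In the single replicates' own lists summits with an E-box numbered 5 to 7, against 2.7% to 2.8% of all summits, and not at the same genes. The following alternatives were chosen after seeing the data. Genes with at least as many thresholded peaks near them as mdl-1 numbered 1, and 3 with overlapping peaks merged. In single replicates they numbered 6 to 10. Genes with at least as many in the gene body as hlh-30 numbered 5, and 3 with merging. In single replicates they numbered 6 to 27. The count of summits over 2 SD stayed at 3 with the strongest replicate peak, though not the same summits. No paired analysis was possible because there was only 1 group. Read depth was not available for these limits, and 2 replicates of 1 line bound what can be said about other animals. A summit several kb from a gene need not act on it.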
